A study of Homo sapiens with 22 samples.

Results

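The activin genes INHBA and INHBB, the activin antagonist FST and the activin receptors ACVR1, ACVR1B, ACVR2A and ACVR2B were followed through the reprogramming of human fibroblasts to induced pluripotent stem cells. These 7 genes were taken by symbol from the 33694 genes of the count files. Of them, 6 were detected in at least 5% of cells and were tested together with all 12794 genes that passed this limit. INHBB was detected in 1.48% of cells and is given mainly by its values.

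Activins are secreted dimers of the subunits that INHBA and INHBB encode, and INHBA makes activin A. An activin binds the type II receptors ACVR2A or ACVR2B, which then recruit and phosphorylate the type I receptor ACVR1B, and this passes the signal to SMAD2 and SMAD3. ACVR1 is a type I receptor best known for bone morphogenetic protein signals, which shares the type II receptors. Follistatin, the product of FST, wraps around activin and keeps it from its receptors. Activin and Nodal signals help to hold human pluripotent cells in the primed state, and activin A is also a known secreted product of activated or senescent fibroblasts.

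BJ fibroblasts, an established human cell line, were cultured in microfluidic channels and received 8 daily transfections of mRNA for POU5F1, SOX2, KLF4, MYC, LIN28 and NANOG, the last on day 8, and their medium was changed to a pluripotent stem cell medium from day 9. Cells were taken before the first transfection (D0) and on D3, D5, D7, D9, D11, D13 and D15, and their transcripts were counted one cell at a time with unique molecular identifiers (UMIs). The replicates are the 2 pools of each day, written D9A and D9B (n = 2 per day). A pool joined the cells of 4 chips and was frozen before capture. For 6 of the 16 pools there were 2 aliquots, whose counts were summed. All values therefore come from 1 line, and p-values measure the spread between pools. The D0 cells are untransfected, D3 to D7 fall in the transfection period, and D9 to D15 follow it. For POU5F1 and the other transfected factors, transfected RNA and RNA of the cell's own gene cannot be told apart.

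Of 44197 barcodes, 2222 fell below 1000 genes or above a mitochondrial share of 10%, and 41975 cells were kept, between 571 and 6142 per pool, with a median of 23717 to 80168 UMIs per cell and 33181614 to 180056814 UMIs per pool. Barcodes found in more than 1 library were 1185, and 2256 kept cells (5.37%) carried one. Levels are given as CPM, the UMIs of a gene scaled to 1000000 UMIs of all cells of a pool or of all cells of a class in a pool, and they were compared for 1 gene at a time and not between genes.

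Cells were placed in classes by COL1A1, the main collagen of fibroblasts, and POU5F1, a core factor of pluripotency. A COL1A1-high cell had COL1A1 at 200 CPM or more and POU5F1 below 100 CPM, and a POU5F1-high cell had POU5F1 at 100 CPM or more and COL1A1 below 200 CPM. Each class is a range of levels of these 2 genes and not a cell type. From D9 to D15, 10077 of 17727 cells (56.8%) lay near a limit, that is between 100 and 500 CPM of COL1A1 or between 50 and 250 CPM of POU5F1. The labels fitted the markers at D0, where 12 of 12 fibroblast markers reached 5 CPM and 1 of 12 pluripotent markers did. From D9 to D15 the COL1A1-high cells expressed 12 of 12 fibroblast markers at a summed level of 10338 to 19006 CPM. In POU5F1-high cells these markers summed to 652 to 2104 CPM. COL1A1, which sets the classes, is 1 of these 12, at day means of 1861 to 4065 CPM in COL1A1-high cells. In POU5F1-high cells its day means were 50.2 to 121 CPM, so the class rule fixes part of this difference. The POU5F1-high cells expressed 12 of 12 pluripotent markers at 3203 to 6443 CPM against 227 to 1073 CPM in COL1A1-high cells. POU5F1, which also sets the classes, is 1 of these 12 pluripotent markers. Its day means were 833 to 1320 CPM in POU5F1-high and 23.0 to 59.9 CPM in COL1A1-high cells. The class rule therefore fixes part of this difference too. The lists did not separate the classes by presence, since 11 of 12 pluripotent markers reached 5 CPM in COL1A1-high cells and 9 of 12 fibroblast markers in POU5F1-high cells. The keratinocyte markers summed to at most 2.11 CPM in either class, and the 4 immune markers to at most 1.43 CPM in POU5F1-high and 21.1 CPM in COL1A1-high cells. The 6 trophoblast markers summed to 57.7 to 196 CPM in COL1A1-high and 17.4 to 252 CPM in POU5F1-high cells. Of these, PGF (34.4 to 105 CPM) led by its median in COL1A1-high cells and CSH1 (7.81 to 232 CPM) in POU5F1-high cells, and CGB5 was at 0 in both. The 4 endothelial markers summed to 1.91 to 10.6 CPM and 5.77 to 28.7 CPM, mostly from KDR, and the 8 mesendoderm markers to 2.21 to 293 CPM and 23.3 to 224 CPM. The part of trophoblast and endothelial markers in the results was not tested. D11A and D13B stood apart, since 2630 (89.9%) and 2227 (54.7%) of their cells lay above both limits. In the class fits, results without both pools are given where a call differed.

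The results turn mainly on a ligand subunit, the antagonist and a type II receptor, so the reference sequence upstream of INHBA, FST and ACVR2B is shown. The 250 bases before the transcription start were taken from RefSeq on GRCh38.p14, a patch release of the GRCh38 build that the counts were made on (their patch is not given in the sources used here), and are printed 5′ to 3′ on the strand of the gene. Capitals mark matches, on either strand, to 1 of 6 motifs: the TATA box TATAAA, the activator protein 1 site TGANTCA, the cyclic AMP response element TGACGTCA, the octamer ATGCAAAT, the SMAD box GTCTG and the GC box GGGCGG. INHBA lies on the minus strand, and its window is chr7:41703091-41703340, which lies inside the GENCODE gene, whose upstream end is at 41705834. The window of FST is chr5:53480379-53480628 (plus strand), and that of ACVR2B is chr3:38453640-38453889 (plus strand).
INHBA: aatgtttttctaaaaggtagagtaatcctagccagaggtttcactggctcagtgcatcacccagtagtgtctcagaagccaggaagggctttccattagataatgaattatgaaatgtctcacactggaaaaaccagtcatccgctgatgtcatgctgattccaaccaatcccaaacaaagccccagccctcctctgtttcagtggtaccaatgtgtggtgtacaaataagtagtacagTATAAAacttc
FST: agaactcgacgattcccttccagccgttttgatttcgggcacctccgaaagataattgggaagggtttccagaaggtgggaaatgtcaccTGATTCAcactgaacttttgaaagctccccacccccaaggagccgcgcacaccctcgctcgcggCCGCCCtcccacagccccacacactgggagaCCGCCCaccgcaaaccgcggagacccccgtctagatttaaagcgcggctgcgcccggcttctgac
ACVR2B: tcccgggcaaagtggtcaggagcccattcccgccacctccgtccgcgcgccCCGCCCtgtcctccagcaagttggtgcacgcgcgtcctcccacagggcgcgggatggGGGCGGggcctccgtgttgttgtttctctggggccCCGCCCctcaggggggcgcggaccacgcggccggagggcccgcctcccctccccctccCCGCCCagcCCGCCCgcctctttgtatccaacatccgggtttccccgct

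The 3 windows differed in composition and in the motifs they held. INHBA had 42.8% G or C and a TATA box that began 11 bases before the start, a motif present in 10.7% of the 35116 promoter windows of the reference. FST had 60.0% G or C, an activator protein 1 site that began 160 bases before the start (the motif was in 6.57% of windows) and GC boxes that began 96 and 65 bases before it. ACVR2B had 74.0% G or C and 5 GC boxes, a motif of 42.6% of windows. The median window of the reference had 58% G or C. No SMAD box (38.0% of windows), cyclic AMP response element (1.65%) or octamer (1.63%) was matched in these 3 windows, which says only that those letters are not in them. All 7 members had an entry, and the INHBB window was richest in G and C (89.6%), with 10 partly overlapping GC boxes. These matches are a description of the sequence and not evidence of binding.

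INHBA (ENSG00000122641, chr7:41667168-41705834, minus strand), the subunit of activin A, was low in fibroblasts and became high after the transfections ended. It was at 5.74 CPM in both D0 pools, 4.74 and 6.20 CPM in D3A and D3B, 10.9 and 11.1 CPM on D5, and 14.0 and 12.5 CPM on D7. It was at 19.0 and 19.9 CPM on D9, 64.6 and 40.7 CPM on D11, 36.9 and 27.7 CPM on D13, and 19.3 and 24.2 CPM on D15. The pools of D0 and D3 overlapped, the pools of D5, D7 and D9 each lay above those of the day before, D11 was the highest day (52.7 ± 16.9 CPM, SD, n = 2), and D9 and D15 overlapped. This order depended on which cells were kept. Under stricter limits (a minimum of 2000 genes and a mitochondrial share up to 5%), which kept 29.4% of the cells of D15A and 16.9% of those of D15B, INHBA was at 65.5 and 38.6 CPM on D11 and at 48.0 and 71.2 CPM on D15, so that these days overlapped and D15 lay above D9 (17.7 and 19.7 CPM). In whole pools a change in the share of a cell class and a change in the RNA per cell of that class cannot be told apart.

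The rise of INHBA from D9 to D11 was called (2.69-fold, log2 fold change 1.43, SE 0.253, adjusted p = 0.00403). A call here and below means an adjusted p under 0.01 in edgeR's quasi-likelihood test across all 12794 genes and a log2 fold change beyond 0.25. This call was lost without D9A (adjusted p = 0.0619), D9B (0.0507) or D11A (0.0487, log2 fold change 1.00), and under the stricter limits on cells (0.0152). Over its 13 alternatives the log2 fold change ran from 1.00 to 1.76. Over the longer contrasts INHBA was 3.64-fold higher on D15 than on D0 (log2 fold change 1.86, SE 0.258, adjusted p = 3.86e-05, and 3.32 under the stricter limits) and 3.06-fold higher on D9 to D15 than on D3 to D7 (1.61, SE 0.141, adjusted p = 6.61e-07). From D3 to D5 its log2 fold change was 0.95 and was not called (adjusted p = 0.0416).

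INHBA shares 11951 bases with the antisense gene INHBA-AS1 (chr7:41693884-41779388, plus strand). The shared bases, chr7:41693884-41705834, reach the upstream end of INHBA. INHBA-AS1 itself had 3 to 32 UMIs per pool, or 0.0490 to 0.350 CPM.

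INHBB (ENSG00000163083, chr2:120346136-120351803, plus strand), the subunit of activin B, went the other way. It had 1.01 CPM in D0A and 1.18 CPM in D0B, from 169 and 173 UMIs. In the 14 later pools it had 5 to 78 UMIs, or 0.0444 to 0.505 CPM, all below both D0 pools. The COL1A1-high cells held 100% of the D0 UMIs of INHBB, where they held 98.0% and 98.5% of all UMIs of D0A and D0B. In a fit with no filter on genes, its log2 fold change was −2.59 from D0 to D3 (adjusted p = 0.000135) and −2.40 from D0 to D15 (adjusted p = 0.000156), and both passed the limits of a call. Within COL1A1-high cells it was −2.31 between D0 and D3 to D7 (adjusted p = 2.55e-08), so that the fall was present with the class limits held fixed. In 6 of the 7 pools of D9 to D15 compared by class below, INHBB was higher in COL1A1-high cells (0.0940 to 1.13 CPM, from 1 to 14 UMIs) than in POU5F1-high cells (0.0400 to 0.371 CPM, from 1 to 26 UMIs), and in D15B it had 0 and 14 UMIs. The fit with no gene filter gave a log2 difference of 0.12 with an SE of 1.20. It weighs each day alike and takes D15 from D15B alone, where 1 class had 0 UMIs. It therefore cannot decide whether the classes differ in INHBB.

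FST (ENSG00000134363, chr5:53480626-53487134, plus strand), the antagonist of activin, had its 1 called step between D7 and D9. It was at 47.4 and 49.2 CPM on D0, 33.9 and 34.5 CPM on D3, 46.1 and 29.7 CPM on D5, and 32.6 and 30.5 CPM on D7. It was at 116 and 133 CPM on D9, 128 and 122 CPM on D11, 185 and 116 CPM on D13, and 72.7 and 90.5 CPM on D15. All 8 pools of D9 to D15 lay above all 8 earlier ones, the pools of D9, D11 and D13 overlapped, and those of D15 lay between D0 and D9. The step from D7 to D9, across the last transfection and the change of medium, was 3.83-fold (log2 fold change 1.94, SE 0.214, adjusted p = 9.95e-05). D9 to D15 against D3 to D7 gave 3.32-fold (1.73, SE 0.118, adjusted p = 5.78e-08).

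FST on D15 against D0 had a log2 fold change of 0.69 (SE 0.208) that was not called (adjusted p = 0.0105), and it was called under 5 alternatives, with 1.53 under the stricter limits on cells. The changes from D0 to D3 (−0.53, adjusted p = 0.0588) and from D13 to D15 (−0.84, adjusted p = 0.0454) were not called, although both D15 pools lay below both D13 pools and DESeq2 called the latter change (−0.83, adjusted p = 0.00564).

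Of the type I receptors, ACVR1B, which carries the activin signal, was not called in any contrast of days over whole pools by edgeR, and ACVR1, the receptor of bone morphogenetic proteins, was called in 1. ACVR1B (ENSG00000135503, chr12:51951699-51997078, plus strand) lay between 2.08 and 4.52 CPM in all 16 pools. Its log2 fold change from D0 to D15 was 0.33 (adjusted p = 0.308). ACVR1 (ENSG00000115170, chr2:157736251-157876330, minus strand) was at 12.3 and 13.8 CPM on D0 and at 4.61 and 3.87 CPM on D15. Between these days it ranged from 4.89 to 17.2 CPM with wide gaps between pools of 1 day, such as 5.83 and 12.7 CPM on D7. ACVR1 was 3.22-fold lower on D15 than on D0 (log2 fold change −1.69, SE 0.387, adjusted p = 0.00201), a call lost without D0B (adjusted p = 0.0113), D15A (0.0124) or D15B (0.0234).

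Both type II receptors, which bind activin itself, were higher at the end than at the start, ACVR2B by far the more. ACVR2B (ENSG00000114739, chr3:38453890-38493142, plus strand) was at 1.52 and 1.61 CPM on D0, 4.85 and 4.46 CPM on D3, 4.66 and 5.39 CPM on D5, and 10.5 and 9.62 CPM on D7. It was at 12.7 and 15.4 CPM on D9, 20.6 and 23.0 CPM on D11, 24.2 and 27.5 CPM on D13, and 45.5 and 39.1 CPM on D15. Apart from D3 and D5, which overlapped, both pools of each day lay above both pools of the day before. ACVR2B rose 2.90-fold from D0 to D3 (log2 fold change 1.53, SE 0.195, adjusted p = 9.12e-05) and 25.8-fold from D0 to D15 (4.69, SE 0.219, adjusted p = 4.53e-09). The call from D0 to D3 was lost with only the pools of these days in the fit (1.61, adjusted p = 0.0125). D9 to D15 stood 3.81-fold above D3 to D7 (1.93, SE 0.108, adjusted p = 8.68e-09).

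The 2.00-fold step of ACVR2B from D5 to D7 was called (log2 fold change 1.00, SE 0.192, adjusted p = 0.00985), and the call was lost without D5A (adjusted p = 0.149), D5B (0.0281), D7A (0.0805) or D7B (0.0218). Aliquots of 1 pool differed by similar amounts. ACVR2B was at 3.72 and 8.27 CPM in those of D5A, 8.28 and 4.37 CPM in D5B, and 13.8 and 8.42 CPM in D7B. ACVR2A (ENSG00000121989, chr2:147844517-147930826, plus strand) was at 2.29 and 2.64 CPM on D0 and at 6.18 and 5.96 CPM on D15, a 2.36-fold rise (log2 fold change 1.24, SE 0.225, adjusted p = 0.000364). Its other pools lay between 2.67 and 6.73 CPM, and no single step between neighbouring days was called.

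**Figure D1:**
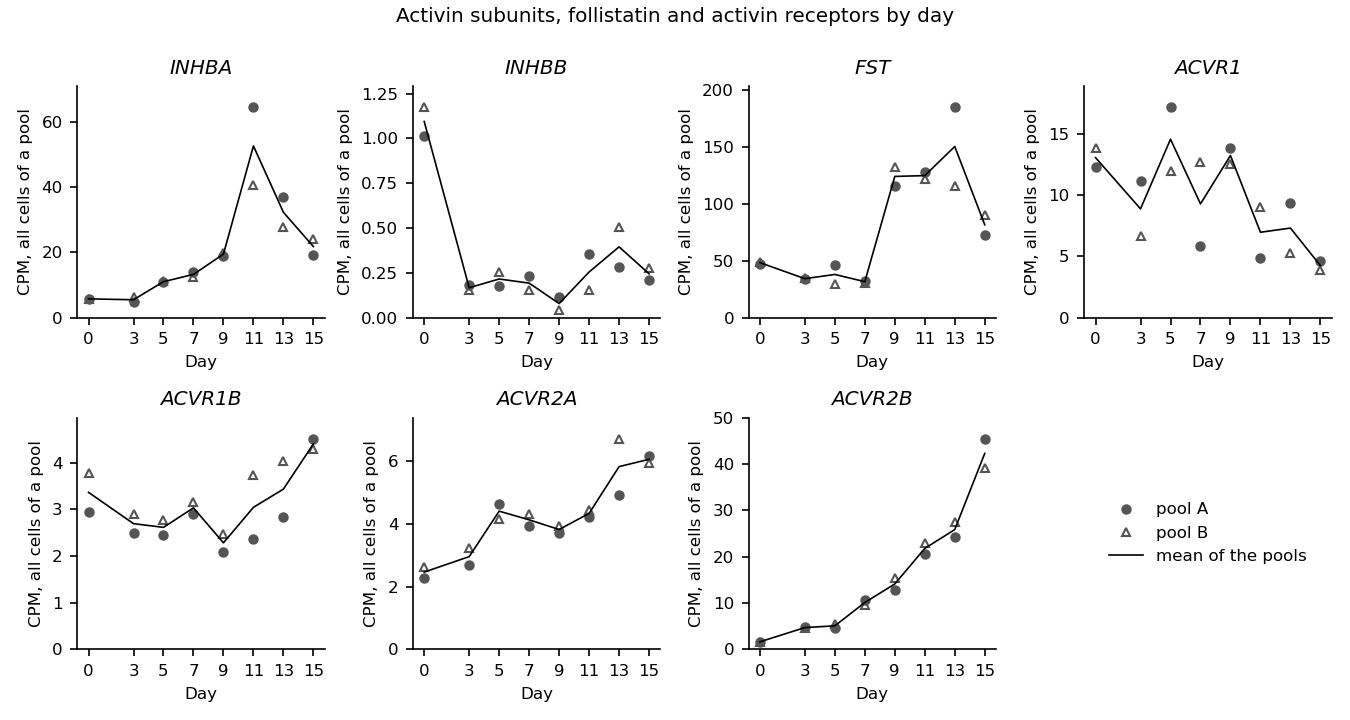
Level of each member in CPM over all cells of a pool (y axis, linear, from 0) against the day (x axis). Each point is 1 pool and the line joins the means of the 2 pools of a day. FST steps up between D7 (32.6 and 30.5 CPM) and D9 (116 and 133 CPM), INHBA is highest on D11 with these limits on cells (not with the stricter ones), and ACVR2B is highest on D15 (45.5 and 39.1 CPM).

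In the long contrasts the members were called at shares near those of all genes. From D0 to D15, 4 of 6 members were called (3 higher, 1 lower) where 53.4% of all genes were, and for D9 to D15 against D3 to D7 it was 3 of 6, all higher, where 43.5% of all genes were. In the latter, ACVR2A was called higher under 3 of its 23 alternatives, DESeq2 among them, and ACVR1 was called lower under 2. The median log2 fold change of the members was 0.97 and 0.98 in these contrasts. From D0 to D3, 1 of 6 was called with 25.6% of all genes called. The steps from D5 to D7, D7 to D9 and D9 to D11 each had 1 member called (ACVR2B, FST and INHBA), where 2.06%, 7.37% and 4.09% of all genes were called. No member was called by edgeR from D3 to D5 (3.56% of all genes), from D11 to D13 (0.117%) or from D13 to D15 (0.0860%), and in each of these steps 2 had an unadjusted p under 0.05. DESeq2 called 1 (INHBA), 0 and 2 members (FST and ACVR2B) there. Neighbouring contrasts share the pools of a day and are not independent of each other.

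The classes compare the levels of these RNAs between cells. On D9 to D15, 7 pools had at least 50 cells in both classes (D15A had 40 COL1A1-high cells and was left out), and the classes were compared within these pools. INHBA was higher in COL1A1-high cells and ACVR2B higher in POU5F1-high cells, while both RNAs were found in each class and in the cells above both limits. In this comparison 5 of 6 members were called, 1 higher and 4 lower in POU5F1-high cells, where 60.2% of all genes were called.

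INHBA was at 59.9, 70.2, 174, 132, 138, 95.3 and 139 CPM in the COL1A1-high cells of D9A, D9B, D11A, D11B, D13A, D13B and D15B. In the POU5F1-high cells of the same pools it was at 1.98, 2.84, 10.2, 2.16, 3.26, 6.95 and 3.96 CPM. No pool of one class overlapped the other, and the fitted difference was 28.7-fold (log2 fold change −4.84, SE 0.364, 95% interval −5.73 to −3.96, adjusted p = 0.000117). It lay between −5.31 and −4.45 in all alternatives. The 2 highest POU5F1-high values were those of D11A and D13B.

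INHBA stood in POU5F1-high cells at 1.64% to 7.30% of its level in COL1A1-high cells. Over 11 fibroblast markers the median of this share lay between 2.67% and 13.9% per pool, with the lowest marker at 0.71% to 7.22% and the highest at 58.01% to 119%. The shares of INHBA and the median of the markers were both low in D13A and D11B and high in D11A and D13B. The part of free or mixed RNA in these low levels was not tested.

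By numbers of cells the picture was alike. With every cell thinned to 5000 UMIs, a UMI of INHBA was found in 33.8% of COL1A1-high cells of D13A (95% exact Clopper-Pearson interval 29.3% to 38.6%, which covers counting error only) and in 1.54% of its POU5F1-high cells (0.824% to 2.62%). Without thinning these shares were 64.3% and 15.1%. In D9A they were 16.5% and 1.21% after thinning, and in all cells of D0 2.77% and 2.55%. The share of cells with an INHBA UMI among POU5F1-high cells was below that of both pools of untransfected fibroblasts in 6 of 8 pools, the exceptions being D11A (6.48%) and D13B (3.15%).

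COL1A1-high cells, 33.7% of the cells of D9A and 22.6% of D9B, held 82.9% and 66.6% of the INHBA UMIs of these pools, and they held 83.2% in D11B and 89.8% in D13A. In D11A and D13B, the cells above both limits held 94.0% and 82.7% of the INHBA UMIs, and 90.5% and 52.7% of all UMIs. In D15B the cells above both limits also held the largest part of the INHBA UMIs, 73.2%, but only 10.5% of all UMIs. There 14.1% of the INHBA UMIs lay in POU5F1-high cells and 12.6% in its 63 COL1A1-high cells. The level of INHBA in the cells above both limits was 67.1 CPM in D11A and 43.4 CPM in D13B, between the 2 classes of the same pool, as it was in D9A, D11B and D13A. In D9B it was 70.8 CPM, close to the 70.2 CPM of COL1A1-high cells, and in D15B it was 169 CPM, above the 139 CPM of COL1A1-high cells.

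FST was lower in POU5F1-high cells on average over these days (2.71-fold, log2 fold change −1.44, SE 0.0499, adjusted p = 3.88e-05). It was at 95.3 and 107 CPM in COL1A1-high cells on D9, 231 and 157 CPM on D11, 394 and 391 CPM on D13, and 385 CPM in D15B. In the POU5F1-high cells of the same pools it was at 105 and 123 CPM, 110 and 84.5 CPM, 81.2 and 71.4 CPM, and 57.6 CPM. On D9 the POU5F1-high cells were the higher in both pools, and from D11 on the COL1A1-high cells were the higher in all 5. With the stricter limits on cells the mean difference was −0.83 and still called.

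The difference between the classes of FST itself changed with the day. From D9 to D15 it changed by −2.82 on the log2 scale (7.04-fold, SE 0.154, adjusted p = 0.00710). FST was 1 of 6 genes of all tested (0.0469%) called in this interaction, a number that rose to 21 without D13B and to 752 without D11A and D13B (the call of FST held in both), and the other 5 members were not called (log2 values −1.77 to 1.04, adjusted p 0.115 to 0.914). D15 enters this test with 1 pool, D15B, with 63 COL1A1-high cells. The call was lost without D9A (adjusted p = 0.167), D9B (0.188), D11A (0.0197) or D11B (0.0199), and its value then lay between −2.86 and −2.68. D13 minus D9, with 2 pools each, gave −2.42 (adjusted p = 0.00522), and D13 and D15 minus D9 and D11 gave −2.04 (adjusted p = 0.00188), both contrasts chosen after the data were seen.

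A marker of another cell state was found in some COL1A1-high cells. CER1, a secreted Nodal antagonist of the mesendoderm, was at 100 CPM or more in 0 of the COL1A1-high cells of D9. In D11A and D11B, where FST was at 231 and 157 CPM, 1 (1.27%) and 5 (0.455%) of them reached this level. In D13A and D13B 22 (5.24%) and 13 (12.0%) did, and in D15B 17 (27.0%). Without these cells FST in COL1A1-high cells was 218 and 156 CPM in D11A and D11B. In D13A, D13B and D15B it was then 342, 313 and 219 CPM, and on D9 it was 95.3 and 107 CPM. The part of these cells and of the other mesendoderm markers in the change was not tested.

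ACVR2B was the member higher in POU5F1-high cells. It was at 17.6, 19.9, 27.9, 31.1, 32.4, 30.9 and 42.7 CPM in the POU5F1-high cells of the 7 pools, and at 4.86, 5.64, 8.15, 4.25, 3.73, 10.2 and 6.34 CPM in their COL1A1-high cells. The classes did not overlap, and the difference was 5.41-fold (log2 fold change 2.44, SE 0.228, adjusted p = 0.000203), with a range of 2.15 to 2.70 over all alternatives. POU5F1-high cells held 59.9% and 72.8% of the ACVR2B UMIs on D9 and 95.0% and 94.4% on D15, where they held 43.3% and 56.6% and then 89.1% and 86.4% of all UMIs. In D11A and D13B they held 10.4% and 51.0% of the ACVR2B UMIs and 7.70% and 45.3% of all UMIs. After thinning, a UMI of ACVR2B was found in 16.3% of POU5F1-high and 1.43% of COL1A1-high cells of D13A.

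ACVR1 and ACVR2A were higher in COL1A1-high cells, by less. ACVR1 was at 7.84 to 19.0 CPM in COL1A1-high and 3.16 to 14.4 CPM in POU5F1-high cells, a 1.98-fold difference (log2 fold change −0.99, SE 0.131, adjusted p = 0.000730), although in D9A it was the higher in POU5F1-high cells (14.4 against 11.5 CPM). ACVR2A, at 4.93 to 10.6 CPM and 2.94 to 6.15 CPM, differed by 1.49-fold (−0.58, SE 0.134, adjusted p = 0.00795). That call was lost without any of 6 pools, all but D15B, with adjusted p of 0.0148 to 0.0273, without D11A and D13B together (0.0108), without the cells with most UMIs (0.0114), with no gene filter (0.0175) and without the pool in the fit (0.0412). ACVR1B had a log2 difference of −0.51 (95% interval −0.84 to −0.18) and was not called (adjusted p = 0.0137). RNA of both receptor types was thus found in the COL1A1-high cells of D9 to D15 beside that of the activin subunit.

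**Figure D2:**
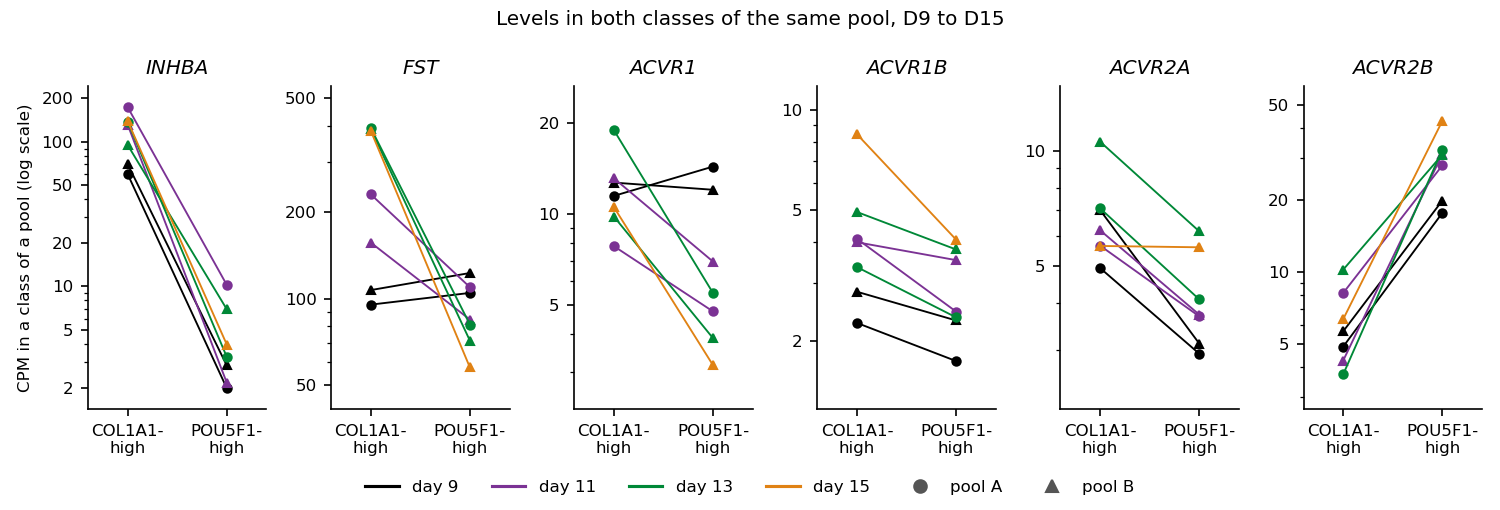
Level of the 6 tested members in CPM (y axis, log scale) in COL1A1-high and POU5F1-high cells of D9 to D15. Each line joins both classes of 1 of 7 pools. INHBA falls from 59.9 to 174 CPM in COL1A1-high cells to 1.98 to 10.2 CPM in POU5F1-high cells in every pool, ACVR2B runs the other way, and FST is higher in POU5F1-high cells on D9 and lower from D11 on.

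Within COL1A1-high cells the ligand and its antagonist rose together after the transfections. INHBA was at 5.79 and 5.77 CPM in the COL1A1-high cells of D0, at 5.95, 7.20, 11.3, 12.7, 16.5 and 13.9 CPM in those of D3A to D7B, and at 59.9 to 174 CPM in those of D9 to D15. FST was at 47.5 and 49.4 CPM, then 30.6 to 49.5 CPM, then 95.3 to 394 CPM. The class is open above its COL1A1 limit, and held 80.9% of cells on D3 to D7 and 15.6% on D9 to D15. Day means of COL1A1 in it were 654 to 1308 CPM on D3 to D7 and 1861 to 4065 CPM on D9 to D15. With the class limits held fixed, INHBA was 10.2-fold higher on D9 to D15 than on D3 to D7 (log2 fold change 3.36, SE 0.152, adjusted p = 3.45e-08) and FST 6.08-fold (2.60, SE 0.137, adjusted p = 7.98e-08). These values lay between 3.23 and 3.60 for INHBA and between 2.01 and 2.69 for FST in all alternatives. Of 6 members, 2 were called in this contrast, both higher, where 16.1% of all genes were called. The receptors were not called by edgeR. ACVR2A had 0.73 (adjusted p = 0.0132) and was called in 7 of 23 alternatives, among them DESeq2 (0.00619), the stricter limits on cells (0.00397) and limits of 500 and 250 CPM (0.000789). The others were ACVR1B at 0.56 (0.0288), ACVR2B 0.22 (0.592) and ACVR1 0.11 (0.781).

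During the transfections the changes within COL1A1-high cells were smaller. INHBA was 1.82-fold higher on D3 to D7 than on D0 (log2 fold change 0.86, SE 0.209, adjusted p = 0.00555), a call lost without D0A, D0B, D5B or D7A. ACVR2B was 3.01-fold higher (1.59, SE 0.336, adjusted p = 0.00251), a call lost without D0A (adjusted p = 0.0420) or D0B (0.0417) and with limits of 500 and 250 CPM (0.0531). These were 2 of 6 members where 29.0% of all genes were called. From D0 to D3 no member was called in COL1A1-high cells by edgeR or by DESeq2, where edgeR called 12.0% of all genes, and 1 had an unadjusted p under 0.05.

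Within POU5F1-high cells ACVR2B rose further, while ACVR1 and FST fell, from D9 to D15. ACVR2B went from 17.6 and 19.9 CPM to 48.5 and 42.7 CPM (2.48-fold, log2 fold change 1.31, SE 0.185, adjusted p = 0.00175). ACVR1 went from 14.4 and 12.1 CPM to 4.26 and 3.16 CPM (3.53-fold, −1.82, SE 0.279, adjusted p = 0.00253). FST went from 105 and 123 CPM to 41.6 and 57.6 CPM (2.25-fold, −1.17, SE 0.231, adjusted p = 0.00734). These 3 of 6 members stood beside 12.0% of all genes called. Each of the 3 calls was lost when any 1 of the 4 pools of D9 and D15 was left out, with adjusted p of 0.0154 to 0.0343 for ACVR1, 0.0156 to 0.0357 for ACVR2B and 0.0236 to 0.0824 for FST. The call of FST was also lost with lower class limits (0.0203), without the 5% of cells with most UMIs (0.0119) and with the pool letter as a block (0.0121). INHBA, at 2.43 and 3.96 CPM on D15, was not called (0.45, adjusted p = 0.632), nor were ACVR1B (1.02, 0.0429) and ACVR2A (0.93, 0.0315).

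The fall of FST in POU5F1-high cells depended on which cells were kept. Under the stricter limits its log2 fold change was −0.05 (adjusted p = 0.896). These limits kept 25.1% of the POU5F1-high cells of D15A (124 cells) and 13.9% of those of D15B (242 cells), and FST was at 89.7 and 126 CPM in the kept cells against 28.5 and 49.6 CPM in those left out. The median mitochondrial share was 5.69% and 6.22% in the cells of D15A and D15B and 2.38% to 5.49% in the other pools. Among the POU5F1-high cells of D15B, 9.09% of the kept and 4.40% of the other cells were high for CER1. The parts of mitochondrial share and of CER1-high cells in this result were not tested.

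**Figure D3:**
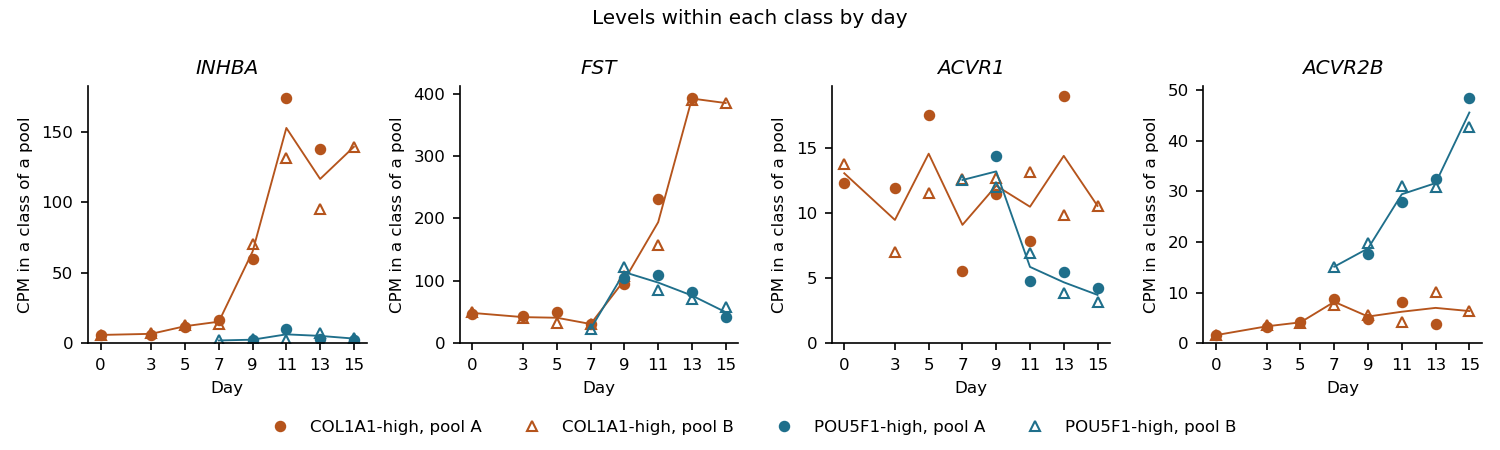
Level in CPM (y axis, linear, from 0) against day (x axis) for INHBA, FST, ACVR1 and ACVR2B within COL1A1-high cells and within POU5F1-high cells. Each point is 1 class of 1 pool with at least 50 cells (COL1A1-high cells of D15 and POU5F1-high cells of D7 have 1 pool, B), and lines join day means. INHBA and FST in COL1A1-high cells are higher in each pool of D9 to D15 than in each earlier pool, and ACVR2B in POU5F1-high cells is higher in both pools of D15 (48.5 and 42.7 CPM) than on D9 (17.6 and 19.9 CPM).

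FST was also high in a pair of smaller classes. CXCL8-high cells were COL1A1-high cells of D3 to D7 with CXCL8, a chemokine of inflamed and senescent fibroblasts, at 100 CPM or more. FST was at 143, 112, 155, 82.2, 79.6 and 90.8 CPM in the CXCL8-high cells of D3A to D7B, against 41.6, 39.1, 38.9, 28.5, 30.0 and 29.2 CPM in the other COL1A1-high cells of the same pools. It was higher in 6 of 6 pools, with 16 to 175 CXCL8-high cells each. The pools D5A and D7B had at least 50 and were tested, and there FST was 3.91-fold higher (log2 fold change 1.97, SE 0.106, adjusted p = 6.04e-08). It was the 1 member of 6 called, where 16.9% of all genes were. Without the pool in the fit its adjusted p was 0.0307. With only 2 pools, the p-values of this comparison lean on a spread shared across all genes. INHBA was at 14.2, 18.4, 13.1, 19.8, 30.1 and 25.7 CPM in CXCL8-high cells against 5.78, 7.11, 11.1, 12.2, 16.4 and 13.6 CPM, higher in each of the 6 pools, but it was not called in the 2 tested (0.67, adjusted p = 0.0141). ACVR2B had −1.02 (adjusted p = 0.0191). The 12 fibroblast markers were all at 5 CPM or more in these cells, COL1A1 by the class rule. The 4 keratinocyte markers were at 0.

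CER1-high cells were cells of D11 to D15 with CER1 at 100 CPM or more and COL1A1 below 200 CPM, whatever their POU5F1. They were compared with the POU5F1-high cells that were not CER1-high, called the other POU5F1-high cells. POU5F1 was at 209 to 536 CPM in the CER1-high cells of D11A to D15B and at 833 to 1866 CPM in the other POU5F1-high cells. The part of this difference in the results was not tested. FST was at 538, 345, 859, 464, 828 and 547 CPM in the CER1-high cells of D11A to D15B, and at 91.0, 71.6, 55.7, 52.2, 27.6 and 39.3 CPM in the other POU5F1-high cells. In the 4 pools with at least 50 cells (D11B, D13A, D13B and D15B) it was 9.22-fold higher (log2 fold change 3.20, SE 0.267, adjusted p = 0.000196), and between 2.88 and 3.54 on the log2 scale in all alternatives. The CER1-high cells of these pools expressed 8 of 8 mesendoderm markers, at a summed level of 2031 to 2901 CPM. CER1, which defines the class, is 1 of these 8, at 2021, 1434, 1568 and 1480 CPM in the 4 pools.

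In CER1-high cells both receptors of the activin complex other than ACVR2B were higher too. ACVR1B was at 3.46, 8.22, 9.27, 11.3, 24.1 and 19.0 CPM against 2.41, 3.25, 2.29, 3.43, 3.81 and 3.55 CPM, a 3.41-fold difference (log2 fold change 1.77, SE 0.214, adjusted p = 0.000769). ACVR2A was at 6.92, 7.88, 10.0, 11.1, 17.2 and 11.5 CPM against 3.54, 3.49, 3.87, 5.89, 5.59 and 5.36 CPM (2.05-fold, 1.04, SE 0.155, adjusted p = 0.00169). The lowest and highest CER1-high values of both genes came from D11A and D15A, which were not in the test. D11A had 2 UMIs of ACVR1B and 4 of ACVR2A in 11 CER1-high cells, and D15A had 21 and 15 in 15 cells. Without the pool in the fit the adjusted p of ACVR2A was 0.0368. Called were 3 of 6 members, all higher, where 23.1% of all genes were called. ACVR1 (0.80, adjusted p = 0.0311), ACVR2B (−0.51, 0.0142) and INHBA (−0.51, 0.123) were not called. Of these, ACVR2B was called lower in CER1-high cells under 3 of its 11 alternatives.

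CER1-high cells were few and held a larger share of the FST UMIs than of the cells. They were 0.376% to 4.98% of the cells of D11 to D15 and held 1.35%, 10.8%, 16.2%, 9.15%, 29.9% and 25.1% of the FST UMIs of D11A to D15B. Without them FST in POU5F1-high cells was 103 and 122 CPM on D9 and 27.6 and 39.3 CPM on D15. D9 had 1 and 3 CER1-high cells. Cells below both limits had FST at 154 and 196 CPM on D9, 349 CPM in D11B, 768 and 443 CPM on D13, and 752 and 711 CPM on D15. Part of them were CER1-high cells, namely 13 of the 134 in D11B, 30 of 58 and 10 of 17 on D13, and 8 of 15 and 17 of 24 on D15. On D9, 0 of the 441 and 303 cells below both limits were CER1-high.

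**Figure D4:**
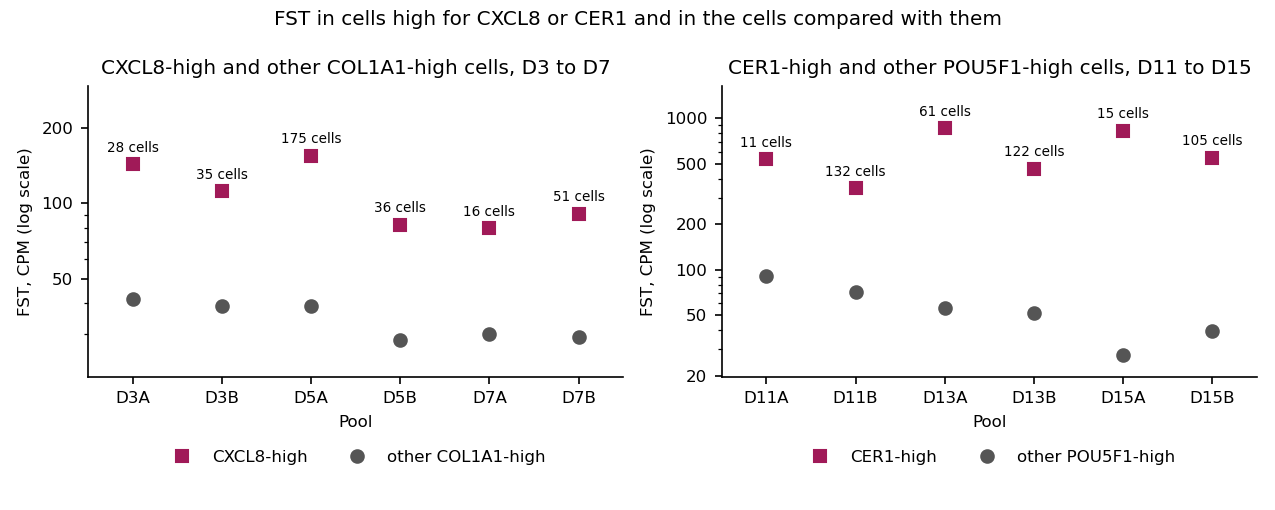
Level of FST in CPM (y axis, log scale) in each pool (x axis), in CXCL8-high and other COL1A1-high cells of D3 to D7 (left) and in CER1-high and other POU5F1-high cells of D11 to D15 (right). Each point is 1 class of 1 pool. FST is higher in CXCL8-high cells in 6 of 6 pools and in CER1-high cells in each of the pools shown.

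The other genes of this branch of the pathway were taken from a list of 47 genes, of which 37 were tested. For D9 to D15 against D3 to D7, 21 were higher and 5 lower, against the background of 43.5% called, with a median log2 fold change of 0.74. Antagonists and co-receptors made up 8 of the higher ones, and none was lower among the 10 tested. LEFTY1 (log2 fold change 8.41) and LEFTY2 (10.25), which block Nodal, rose, as did CER1 (13.83), TDGF1 (5.93), the Nodal co-receptor, and BAMBI (2.58), a pseudoreceptor that dampens signalling. CER1 had no UMI on D0 and hardly any before D9, so its fitted value is not a bound. Of the ligands, NODAL (9.15), GDF3 (5.73) and TGFB2 (2.28) were higher and GDF15 (−0.87) lower.

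Of the other receptors, 4 of 7 tested were lower and 1 higher. TGFBR3 (−1.67), ENG (−1.27), TGFBR2 (−1.20) and ACVRL1 (−1.09), which bind TGF-beta or related ligands, were lower, and BMPR1A (1.30) was higher. Of the 14 genes of signal and feedback 9 were higher and none lower, among them FOXH1 (6.12), the partner of SMAD2 on DNA, and the feedback genes PMEPA1 (3.01), SKIL (2.39) and SMAD7 (1.58).

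Between the classes 11 genes of the list were higher and 16 lower in POU5F1-high cells, beside 60.2% of all genes called. On the side of POU5F1-high cells, with ACVR2B, stood GDF3 (log2 fold change 3.21) and NODAL (2.71), LEFTY1 (3.78), LEFTY2 (2.62), TDGF1 (3.31), IGSF1 (3.77), BMPR1A (1.07), FOXH1 (3.67) and SKIL (1.12). NODAL was at 51.7 to 362 CPM in POU5F1-high and 7.04 to 50.8 CPM in COL1A1-high cells. On the side of COL1A1-high cells, with INHBA, stood TGFB2 (−4.22), TGFB1 (−1.48) and GDF15 (−1.42), the follistatin-like genes FSTL3 (−2.84) and FSTL1 (−2.37), and 5 of 7 other receptors, namely ACVRL1 (−4.12), ENG (−3.07), TGFBR2 (−1.97), BMPR2 (−1.73) and TGFBR1 (−1.22). LTBP2 (−4.20), SMURF2 (−1.50) and PMEPA1 (−1.09) were lower in POU5F1-high cells too. The adjusted p of each gene named here was below the limit of a call.

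**Figure D5:**
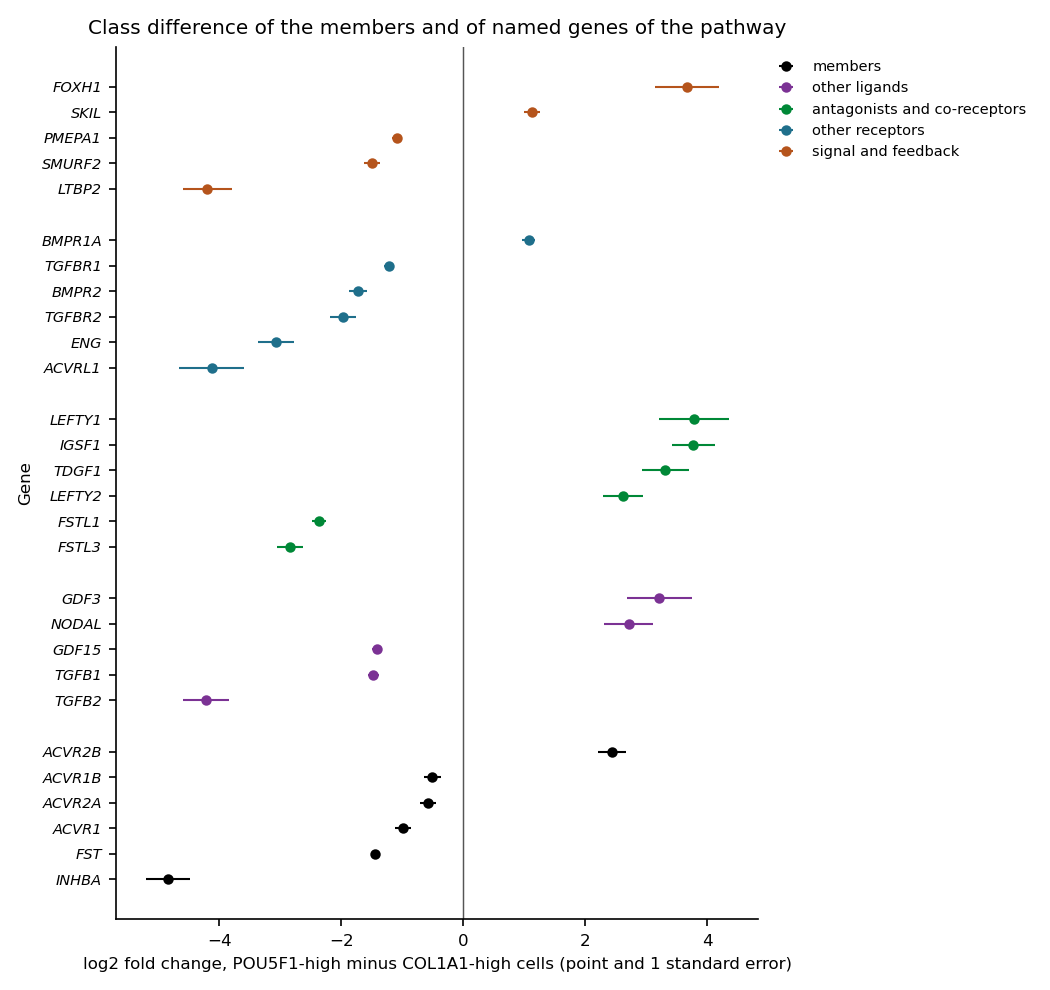
Log2 fold change between POU5F1-high and COL1A1-high cells of the same pools (x axis; values above 0 are higher in POU5F1-high cells) for the members and the named genes of the pathway (y axis). Points are fitted values and bars 1 standard error. INHBA (−4.84) is the lowest value shown, followed by TGFB2 (−4.22), LTBP2 (−4.20) and ACVRL1 (−4.12), and ACVR2B (2.44) lies above 0 next to LEFTY2 (2.62) and NODAL (2.71), below LEFTY1 (3.78), the highest.

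The genes most like each member over the 16 pools were found by Pearson's r of log2(CPM + 1), which is a description, since pools share days and class shares. They were IL32 (0.974), ACTC1 (0.959) and MYLPF (0.959) for INHBA, and NOX4 (0.970), ZNF600 (0.952) and FGF8 (0.952) for FST. For ACVR2B they were MIS18A (0.991), RAB3IP (0.989) and IGF2BP1 (0.987), and for ACVR2A NOTCH1 (0.951), TAF4 (0.948) and MPV17L (0.945). For ACVR1 they were PAPD4 (0.953), TMEM30A (0.950) and RNF11 (0.948), and for ACVR1B TRAPPC11 (0.920), HIPK2 (0.906) and IKBKAP (0.904). Between members, r was 0.801 for INHBA and FST and 0.826 for INHBA and ACVR2B, although INHBA was higher in COL1A1-high and ACVR2B in POU5F1-high cells of the same pools.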

How the data were processed

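The authors deposited, for each library, counts of UMIs per gene and cell barcode made with Cell Ranger 2.2 on hg38 (GRCh38), with no normalization and before their own filters on cells. Libraries of 1 pool were added, cells were filtered, and UMIs were summed per pool, or per pool and class, and given as CPM. Sums were compared with edgeR 4.0.16 (quasi-likelihood test, TMM, Benjamini-Hochberg over all genes tested) in R 4.3.3. Contrasts of days were fitted over all pools with the day as factor, and those of classes with the pool as a block. Shares, figures and likeness were computed in Python 3.11.15 with numpy 2.4.6, pandas 2.3.3, scipy 1.17.1 and matplotlib 3.10.9. Coordinates came from the GENCODE annotation of GRCh38. DESeq2 1.42.0 was an alternative. No doublet caller was run, and cells above both limits were left out of the class comparison and counted.

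The members, the pathway list and the markers were chosen with earlier results of these data known, and no list is independent evidence. Named are all members, genes of the pathway list called in the class comparison or between D9 to D15 and D3 to D7 and among the 6 largest of their sub-list, and the 3 genes most like each member; 1 gene of the pathway list is counted but not reported by name here. The scripts were tested on simulated counts. Totals per pool limit the precision of genes at a few CPM.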

Additional observations from a re-analysis of the deposited data

Results flagged for a closer look

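One result was set aside for a closer look because the contrast between the classes differed between days by a test of that difference. FST was 7.04-fold lower in POU5F1-high against COL1A1-high cells on D15 relative to D9, a log2 value of −2.82 (SE 0.154, adjusted p = 0.00710 in edgeR). On D9 FST was at 95.3 and 107 CPM in COL1A1-high cells and at 105 and 123 CPM in POU5F1-high cells. In D15B it was at 385 CPM and 57.6 CPM. D15 had 1 pool in this test, with 63 COL1A1-high cells, of which 17 (27.0%) had CER1 at 100 CPM or more. Without those 17 cells FST in the COL1A1-high cells of D15B was 219 CPM. With the stricter limits on cells the test could not be run, because no D15 pool then had 50 COL1A1-high cells. The call was lost under 7 of the 17 alternatives that were run.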

How the results depend on the processing

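Of 102 differences of members, 35 of 1512 values under alternatives had the opposite sign, and none of these was called in either fit. The calls of INHBA, FST, ACVR1 and ACVR2B between classes, of FST from D7 to D9, of INHBA, ACVR2A and ACVR2B from D0 to D15, of INHBA, FST and ACVR2B on D9 to D15 against D3 to D7, of INHBA and FST within COL1A1-high cells after D7, and of FST and ACVR1B in CER1-high cells held in every alternative run. The number of members called fell to 0 from D0 to D3 with only the pools of the days compared, from D5 to D7 with that setting, with the stricter limits on cells or without any 1 pool, and from D9 to D11 with the stricter limits (0 to 1 with 1 pool left out). With DESeq2 it was 1 from D3 to D5 and 2 from D13 to D15. In COL1A1-high cells it was 1 from D0 to D3 with no gene filter, with limits of 100 and 50 CPM, or without D11A and D13B, and for D3 to D7 against D0 it was 1 with limits of 500 and 250 CPM and 0 to 2 with 1 pool left out. In POU5F1-high cells it was 0 without any 1 pool. For the class difference by day it was 0 with the high limits, without shared barcodes or without the pool as a replicate block, and 0 to 1 with 1 pool left out. In CXCL8-high cells it was 2 with DESeq2 size factors, 3 with no gene filter and 0 with no replicate block. The causes were not tested. Values under another sign were, with no gene filter, INHBA 0.060 from D0 to D3, ACVR2B −0.15 and FST −0.12 from D3 to D5, ACVR2A −0.10 from D13 to D15 and ACVR1 −0.012 in CXCL8-high cells. With the stricter limits they were INHBA 0.033 from D0 to D3 and 0.48 from D13 to D15, and FST −0.045 from D3 to D5 and 0.022 from D9 to D11. Without the 5% of cells with most UMIs they were ACVR2B −0.060 from D3 to D5 and FST 0.043 from D9 to D11, which was 0.0093 by UMI totals alone. With other class limits they were FST 0.13 in COL1A1-high cells from D0 to D3, ACVR1B 0.73 in the class difference by day, and ACVR2B −0.37 and ACVR1B −0.0028 in COL1A1-high cells after D7, where ACVR2B was −0.076 without D11A and D13B. The class difference of INHBA by day was 0.28 for D13 minus D9 and 0.15 for D13 and D15 minus D9 and D11. With 1 pool left out the range was −0.37 to 0.13 for INHBA from D0 to D3, −0.11 to 0.22 for ACVR2B, −0.19 to 0.31 for FST and −0.26 to 0.067 for ACVR1B from D3 to D5, −0.49 to 0.018 for FST from D5 to D7 and −0.094 to 0.078 from D9 to D11, −0.24 to 0.56 for ACVR1 and −0.12 to 0.58 for ACVR1B from D11 to D13, and −0.23 to 0.42 for ACVR2A from D13 to D15. In COL1A1-high cells it was −0.18 to 0.38 for ACVR2A and −0.052 to 0.31 for INHBA from D0 to D3 and −0.045 to 0.35 for ACVR1 after D7.

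Over all genes, calls numbered 3280 from D0 to D3 (0 with only the pools of these days), 455 from D3 to D5 (27 with only those pools, 889 with DESeq2), 263 from D5 to D7 (28 without D5A, 610 with DESeq2), 943 from D7 to D9 (309 without D7B, 1904 with no gene filter), 523 from D9 to D11 (67 without D9A, 1470 with no gene filter), 15 from D11 to D13 (0 to 473) and 11 from D13 to D15 (0 to 654). They numbered 6836 from D0 to D15 and 5565 for D9 to D15 against D3 to D7 (11257 and 10400 with no gene filter). In COL1A1-high cells 1535 were called from D0 to D3 (198 to 3165), 3710 for D3 to D7 against D0 (1261 to 6452) and 2065 after D7 (to 3777), and in POU5F1-high cells 1532 (236 to 5381). Between classes 7704 were called, 6 in the class difference by day (0 to 752, the highest without D11A and D13B), 2158 in CXCL8-high cells (0 with no replicate block) and 2956 in CER1-high cells (613 with no replicate block). No label says whether the letters A and B pair pools across days. The correlation of the letter difference over 28 pairs of days ran from −0.447 to 0.817 and passed 0.1 in 10, which cannot decide this. The letter as a replicate block lost 1 member call, FST within POU5F1-high cells (adjusted p = 0.0121), and gained ACVR2A within COL1A1-high cells after D7 (3 members called). Genes at a few CPM are limited by depth, and so are classes of fewer than 100 cells.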
